A study of Homo sapiens with 12 samples.

Results

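The 38 genes described here belong to the TGF-beta and BMP pathway. They were chosen by name as ligands, latency proteins, receptors, extracellular antagonists, SMAD proteins, feedback inhibitors and targets. The choice was made with earlier results of these data known. A called share above that of all genes therefore describes this list and is not evidence of its own. All 38 were matched to 1 Ensembl gene each, are protein-coding, and are among the 58302 genes of the deposited table. They were measured by sequencing of polyadenylated RNA in 12 libraries of PC3 and 22Rv1. PC3 is a human prostate cancer cell line grown from a bone metastasis, and 22Rv1 is a line from a relapsed CWR22 xenograft. Every culture carried an MSCV vector with IRES-eGFP: the controls carried eGFP alone, and the others ETV4WT-IRES-eGFP (wild-type ETV4) or ETV4AAA-IRES-eGFP (mutated ETV4). ETV4 is a transcription factor of the PEA3 subfamily of ETS factors. The sources used here do not name the mutated residues of ETV4AAA. Living cells that were eGFP positive and DAPI negative were sorted 1 week after infection, so each group is a sorted pool. Each of the 6 groups holds n = 2 libraries. The labels do not say whether these came from separate cultures. The p-values measure only the spread between libraries of a group, estimated over all 6 groups together, and that spread may be technical.

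TGF-beta, activin and BMP ligands bind pairs of type I and type II serine/threonine kinase receptors. TGF-beta and activin receptors phosphorylate SMAD2 and SMAD3, BMP receptors phosphorylate SMAD1, SMAD5 and SMAD9, and both sets enter the nucleus with SMAD4. Latent TGF-beta is held in the matrix by the LTBP proteins, NOG, GREM1 and FST trap ligands outside the cell, and SMAD6, SMAD7, SKIL, PMEPA1 and the pseudoreceptor BAMBI dampen the signal. In prostate epithelium TGF-beta is known as a growth inhibitor, and many prostate cancers lower its type II receptor.

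The libraries held 43572713 to 51199207 counts in PC3 and 41698738 to 50226044 in 22Rv1. Levels are CPM, the counts per 1000000 counts of a library with library sizes scaled by TMM, and n = 2 in every group. The luminal marker KLK3 was at 19.8 to 53.3 CPM in the 22Rv1 libraries and at 0 in all 6 PC3 libraries, which matches the labels. The introduced gene did not separate the PC3 groups. ETV4 was at 116 and 126 CPM in PC3 eGFP, at 215 and 112 CPM in the libraries labelled PC3 ETV4WT, and at 223 and 109 CPM in those labelled PC3 ETV4AAA. In 22Rv1 it was at 31.2 and 24.9 with eGFP, 385 and 484 with ETV4WT and 389.9 and 281 CPM with ETV4AAA. PC3 directions below therefore refer to the libraries as labelled. The immune markers summed to 0.163 to 0.637 CPM in every library, with MS4A1 at 0 in all 12.

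The promoters are shown for members that recur in the results: the ID genes and BHLHE40 as transcription targets, the receptors TGFBR2 and TGFBR3 and the latency gene LTBP1, which were called higher in 5 of the 9 comparisons each, and TGFBI, added after its values were seen. The RefSeq table (GRCh38.p14) held a promoter for 35 of the 38 members. For each gene the 250 bases before the start nearest the gene's 5′ end were searched for 3 motifs on both strands. Bases inside an exon that GENCODE 29 annotates for the gene are left out, so the printed stretches run from 48 to 250 bases, and none is printed for ID3 and BHLHE40, whose windows lie inside annotated exons. Capitals mark AGGAAG (the PEA3 motif), CAGAC (the SMAD-binding motif) and GGCGCC (an element of BMP-responsive promoters), or their reverse complements. No motif holds another within it. The stretches of ID2 and TGFBR3 lie inside the spans that GENCODE 29 annotates for these genes, chr2:8678845-8684453 and chr1:91680343-91906335.
ID1, chr20:31605039-31605282, plus strand: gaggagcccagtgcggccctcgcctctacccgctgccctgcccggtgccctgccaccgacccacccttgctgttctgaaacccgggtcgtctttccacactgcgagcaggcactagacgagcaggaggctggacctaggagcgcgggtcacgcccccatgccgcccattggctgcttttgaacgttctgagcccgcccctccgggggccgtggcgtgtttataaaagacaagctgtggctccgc
ID2, chr2:8681806-8681853, plus strand: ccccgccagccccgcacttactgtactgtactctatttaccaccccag
TGFBR2, chr3:30606106-30606355, plus strand: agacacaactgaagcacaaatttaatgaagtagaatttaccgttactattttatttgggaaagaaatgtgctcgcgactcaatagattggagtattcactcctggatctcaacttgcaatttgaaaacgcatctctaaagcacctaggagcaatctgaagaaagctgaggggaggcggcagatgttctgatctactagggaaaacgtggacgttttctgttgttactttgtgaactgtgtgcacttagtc
LTBP1, chr2:32946703-32946952, plus strand: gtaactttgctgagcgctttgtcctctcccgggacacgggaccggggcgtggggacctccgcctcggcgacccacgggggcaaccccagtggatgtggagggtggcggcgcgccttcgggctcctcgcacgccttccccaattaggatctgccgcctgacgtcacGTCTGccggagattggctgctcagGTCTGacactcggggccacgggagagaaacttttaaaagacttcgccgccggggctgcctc
TGFBR3, chr1:91886280-91886401, minus strand: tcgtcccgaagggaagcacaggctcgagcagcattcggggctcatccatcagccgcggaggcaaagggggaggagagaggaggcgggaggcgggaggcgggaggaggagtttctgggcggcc
TGFBI, chr5:136028738-136028894, plus strand: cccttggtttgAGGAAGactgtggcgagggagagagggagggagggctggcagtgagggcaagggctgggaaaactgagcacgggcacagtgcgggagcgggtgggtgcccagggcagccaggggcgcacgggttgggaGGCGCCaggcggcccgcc
In these stretches TGFBI held 1 AGGAAG and 1 GGCGCC, LTBP1 held CAGAC at 2 places, and the other 4 held no match. Over whole windows, AGGAAG was present in 8 of 35 member promoters (22.9%) and in 28.6% of 27305 promoters. CAGAC was present in 13 (37.1%) against 37.9%, and GGCGCC in 14 (40.0%) against 16.0%. A match describes the letters only.

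Among the eGFP controls, most members were lower in 22Rv1 than in PC3. The ligands, TGF-beta receptors and antagonists were mostly lower, while the ID genes, SMAD7 and PMEPA1 were higher. A gene was called at a Benjamini-Hochberg adjusted p under 0.05 in edgeR's quasi-likelihood test over all genes tested. The low-count filter kept 37 members and removed GREM1, a BMP antagonist with at most 0.0717 CPM in any library. Of the 37 tested members 30 were called, 9 higher and 21 lower in 22Rv1, where 70.9% of all 23238 genes tested were called. The median log2 difference (22Rv1 minus PC3) was -0.74 over the members and 0.0 over all genes. With upper-quartile scaling the median of all genes moved to 0.32, and ACVR2A, BMPR2 and BAMBI were no longer called.

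Among the ligands, TGFB1 was at 65.3 and 73.2 CPM in PC3 eGFP and at 14.9 and 10.8 CPM in 22Rv1 eGFP. TGFB2 was at 17.7 and 18.7 CPM against 0.328 and 0.124 CPM, a log2 difference of -6.31 ± 0.33 (SE, adjusted p = 6.97e-09). TGFB3 was at 22.6 and 23.8 CPM in PC3 and 12.7 and 11.7 CPM in 22Rv1. All of the TGF-beta ligands were called lower in 22Rv1, beside the 70.9% of all genes called in either direction. The activin subunit gene INHBB went the other way, with 1 count over both PC3 libraries and 1923 counts over both 22Rv1 libraries, a ratio of 1901 with a 95% counting interval of 341 to 75134. INHBA, the other activin subunit, stayed between 0.387 and 0.783 CPM in all 12 libraries and was called in no comparison. BMP2 was 12.8 and 12.6 CPM in PC3 and 17.7 and 17.1 CPM in 22Rv1. BMP4, BMP6 and BMP7 were lower in 22Rv1, with log2 differences of -1.08, -2.31 and -3.47. BMP2 was the BMP ligand called higher in 22Rv1, a call lost without either PC3 library or without 22Rv1 eGFP replicate 1.

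LTBP1, which binds latent TGF-beta, was at 323 and 313 CPM in PC3 eGFP and 13.9 and 14 CPM in 22Rv1 eGFP, a 22.8-fold lower level (log2 -4.51 ± 0.13, adjusted p = 8.42e-11). LTBP3 was 3.03-fold lower, and LTBP2 and LTBP4 overlapped between the lines. Among receptors, the ligand-binding type II receptor TGFBR2 was at 70.5 and 69.7 CPM in PC3 and 1.95 and 2.68 CPM in 22Rv1, 30.3-fold lower (log2 -4.92 ± 0.19, adjusted p = 5.22e-10). The type I receptor TGFBR1 was 4.51-fold lower, the co-receptor TGFBR3 3.95-fold lower and the BMP type I receptor ACVR1 5.91-fold lower. The activin type I receptor ACVR1B was 2.15-fold higher. The activin type II receptor ACVR2A and the BMP type II receptor BMPR2 differed by -0.72 and -0.60 on the log2 scale. ACVR2B and BMPR1A were not called, at -0.05 and -0.34. The pseudoreceptor BAMBI differed by -0.74.

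NOG, which traps BMPs, was at 35.5 and 38.7 CPM in PC3 eGFP and had 0 counts in both 22Rv1 eGFP libraries, at least 1201-fold lower when the 22Rv1 group is set to a floor of 3 counts over both libraries. FST, which traps activin, was at 31.0 and 30.9 CPM in PC3 and 0.554 and 0.597 CPM in 22Rv1. Of the signal-transducing SMADs, SMAD3 was 2.37-fold lower in 22Rv1, and SMAD2 and SMAD4 overlapped between the lines. SMAD2 ranged from 73.3 to 104 CPM and SMAD4 from 51.8 to 69.8 CPM over all 12 libraries. Of the feedback inhibitors, SMAD6 and SKIL were lower in 22Rv1, with log2 differences of -1.55 and -1.24, and SMAD7 was 6.22-fold higher. PMEPA1, a feedback inhibitor that binds receptor-activated SMADs, had 3 counts over both PC3 eGFP libraries and 39406 over both 22Rv1 eGFP libraries, at 425 and 385 CPM. That is a ratio of 12987 with a 95% counting interval of 4444 to 62977.

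The ID genes encode helix-loop-helix proteins without a DNA-binding region and are direct BMP targets. ID1 was at 12.9 and 14.8 CPM in PC3 and 68.2 and 54.1 CPM in 22Rv1. ID2 was at 20.8 and 22.7 CPM against 142 and 149 CPM. ID3 was at 7.93 and 9.48 CPM against 267 and 184 CPM, 25.9-fold higher (log2 4.69 ± 0.34, adjusted p = 1.18e-07). All 3 ID genes were called higher in 22Rv1, again beside the 70.9% of all genes called in either direction. Per kilobase of exon, the mean level in PC3 eGFP was 11.3 CPM for ID1, 9.84 for ID2 and 4.84 for ID3. In 22Rv1 eGFP it was 49.6, 66.2 and 125 CPM, and in 22Rv1 ETV4AAA 68.2, 146 and 259 CPM. BHLHE40, a basic helix-loop-helix repressor known as a TGF-beta target, was at 99.8 and 108 CPM in PC3 and 0.964 and 1.28 CPM in 22Rv1, 92.6-fold lower. TGFBI, a matrix protein named for its induction by TGF-beta, was low in both lines, with 3 counts over both PC3 eGFP libraries and 48 over both 22Rv1 eGFP libraries.

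**Figure D1:**
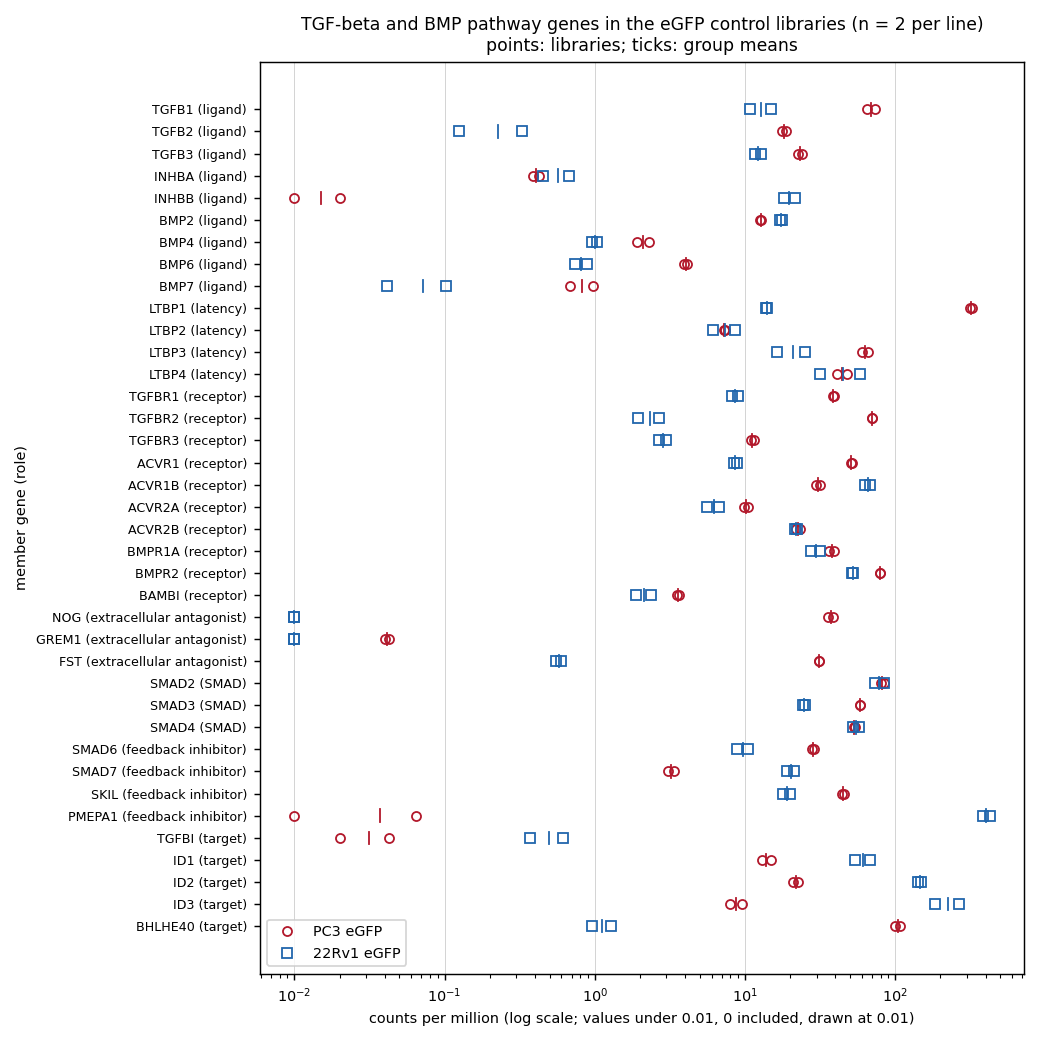
Level of each of the 38 members in the 4 eGFP libraries in CPM on a log axis, with circles for PC3, squares for 22Rv1 and ticks for group means. LTBP1, TGFBR2, NOG, FST and BHLHE40 lie far to the right in PC3, and PMEPA1, INHBB and the ID genes far to the right in 22Rv1.

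With ETV4AAA 21 of 37 tested members changed in 22Rv1, most of them upward. Ligands, receptors, feedback inhibitors and targets were among those that rose, led by TGFBI, BMP4 and BHLHE40. Against eGFP 56.8% of the tested members were called, 18 up and 3 down, where 31.8% of all genes tested were called. The median log2 change was 0.71 over the members and 0.0 over all genes. The number called was 16 to 18 when any 1 of the 4 libraries was left out, and 15 members were called under every alternative tried.

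TGFBI was at 0.615 and 0.371 CPM in 22Rv1 eGFP, 0.806 and 0.878 with ETV4WT, and 269 and 264 CPM with ETV4AAA. Both ETV4AAA libraries stood far above the other 4. This was a 537-fold rise over eGFP (log2 9.07 ± 0.33, adjusted p = 3.25e-09). BHLHE40 was at 0.964 and 1.28 with eGFP, 2.02 and 2.67 with ETV4WT and 27.3 and 23.5 CPM with ETV4AAA. It rose 22.6-fold with ETV4AAA (log2 4.5 ± 0.19, adjusted p = 9.49e-09). Its groups did not overlap, and ETV4WT lay between eGFP and ETV4AAA. TGFBI lies at chr5:136028895-136063818 and BHLHE40 at chr3:4979116-4985323 (GRCh38, GENCODE 29). ID2 was at 142 and 149 with eGFP, 230.1 and 185 with ETV4WT and 312 and 334 CPM with ETV4AAA, a 2.22-fold rise with ETV4AAA (adjusted p = 2.57e-05). ID3 was at 267 and 184, 362 and 331, and 501 and 430.5 CPM, a log2 rise of 1.05 with ETV4AAA that lost its call without 22Rv1 eGFP replicate 2 (0.78, adjusted p = 0.175) and without either ETV4AAA library. ID1 was at 68.2 and 54.1, 62.1 and 60.9, and 92.7 and 75.6 CPM and was not called (log2 0.46, adjusted p = 0.0564 in edgeR's test).

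Among the ligands, BMP4 was at 0.964 and 1.03 with eGFP, 1.2 and 1.12 with ETV4WT and 26.2 and 22.1 CPM with ETV4AAA. The ETV4AAA libraries did not overlap the others, and the rise over eGFP was 24.2-fold (log2 4.60 ± 0.19, adjusted p = 7.82e-09). TGFB2 was at 0.328 and 0.124, 0.327 and 0.245, and 0.954 and 1.28 CPM, a rise of 2.29 ± 0.37 on the log2 scale that left it below its PC3 level. TGFB1 was at 14.9 and 10.8, 17.6 and 19.8, and 37.1 and 31.3 CPM. It rose by 1.41 on the log2 scale, and by 1.17 with an adjusted p of 0.0575 without 22Rv1 eGFP replicate 2. BMP6 went from 0.882 and 0.741 to 1.82 and 1.09 CPM and rose by 0.84, a call lost without 22Rv1 ETV4AAA replicate 1 (0.41, adjusted p = 0.284) or without either eGFP library. TGFB3 moved the other way, from 12.7 and 11.7 CPM to 7.25 and 7.28 CPM, and fell by 0.75 (log2, adjusted p = 0.00225). BMP2, BMP7, INHBA and INHBB were not called, with INHBB at 13.5 to 21.4 CPM over the 22Rv1 libraries. BMP4 lies at chr14:53949736-53958761 on the minus strand and overlaps no other annotated gene.

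Receptors rose as well. TGFBR2 was at 1.95 and 2.68 with eGFP, 3.20 and 4.06 with ETV4WT and 22.0 and 24.6 CPM with ETV4AAA. The ETV4AAA libraries stood above all others, a 10.1-fold rise (log2 3.33 ± 0.18, adjusted p = 5.94e-08). TGFBR3, or betaglycan, which presents ligand to the signalling receptors, was at 2.99 and 2.68, 3.74 and 3.20, and 13.9 and 13.2 CPM, a 4.78-fold rise. ACVR1 was at 8.84 and 8.4, 6.97 and 7.68, and 19.3 and 19.3 CPM and rose 2.24-fold. BMPR2 went from 51.8 and 52.3 to 89.3 and 81.3 CPM and rose 1.64-fold. BAMBI, which binds receptors but has no kinase, was at 2.38 and 1.89 with eGFP, 3.44 and 2.69 with ETV4WT and 19.5 and 20.1 CPM with ETV4AAA, a 9.25-fold rise (log2 3.21 ± 0.18, adjusted p = 9.12e-08). The other 5 receptors, TGFBR1, ACVR1B, ACVR2A, ACVR2B and BMPR1A, were not called.

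LTBP1 was at 13.9 and 14 with eGFP, 8.95 and 10.6 with ETV4WT and 40.4 and 35.3 CPM with ETV4AAA, a 2.71-fold rise (adjusted p = 2.42e-06). LTBP3 went from 25.2 and 16.3 to 55.7 and 39.2 CPM and rose by 1.19 on the log2 scale. Its call was lost when any 1 of the 4 libraries was left out, down to 0.89 with an adjusted p of 0.251. LTBP2 and LTBP4 were not called. FST was at 0.554 and 0.597, 0.784 and 0.572, and 1.29 and 0.925 CPM and rose 1.92-fold, a call lost without 22Rv1 ETV4AAA replicate 1 (log2 0.67, adjusted p = 0.101) or without 22Rv1 eGFP replicate 1. NOG was at 0 with eGFP and ETV4WT and at 0.0444 and 0.0237 CPM with ETV4AAA and was not called. GREM1 reached 0.0237 CPM at most in 22Rv1.

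SKIL, a corepressor that binds SMAD proteins, was at 18.0 and 19.9 with eGFP, 16.4 and 16.1 with ETV4WT and 59.6 and 65.0 CPM with ETV4AAA, a 3.29-fold rise (log2 1.72 ± 0.17, adjusted p = 1.21e-05). SMAD6, the inhibitory SMAD that acts mainly on BMP receptors, was at 10.5 and 8.85, 7.27 and 8.90, and 26.4 and 20.2 CPM and rose 2.41-fold. SMAD3, which carries the TGF-beta signal, fell: it was at 24.9 and 24.4 with eGFP, 15.3 and 17.9 with ETV4WT and 13.4 and 12.7 CPM with ETV4AAA. The fall with ETV4AAA was by 0.92 (log2, adjusted p = 0.000163). PMEPA1 was at 425 and 385, 426 and 481, and 282 and 245 CPM and fell by 0.62. The PMEPA1 call was lost when any 1 of the 4 libraries was left out. SMAD2, SMAD4 and SMAD7 were not called.

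**Figure D2:**
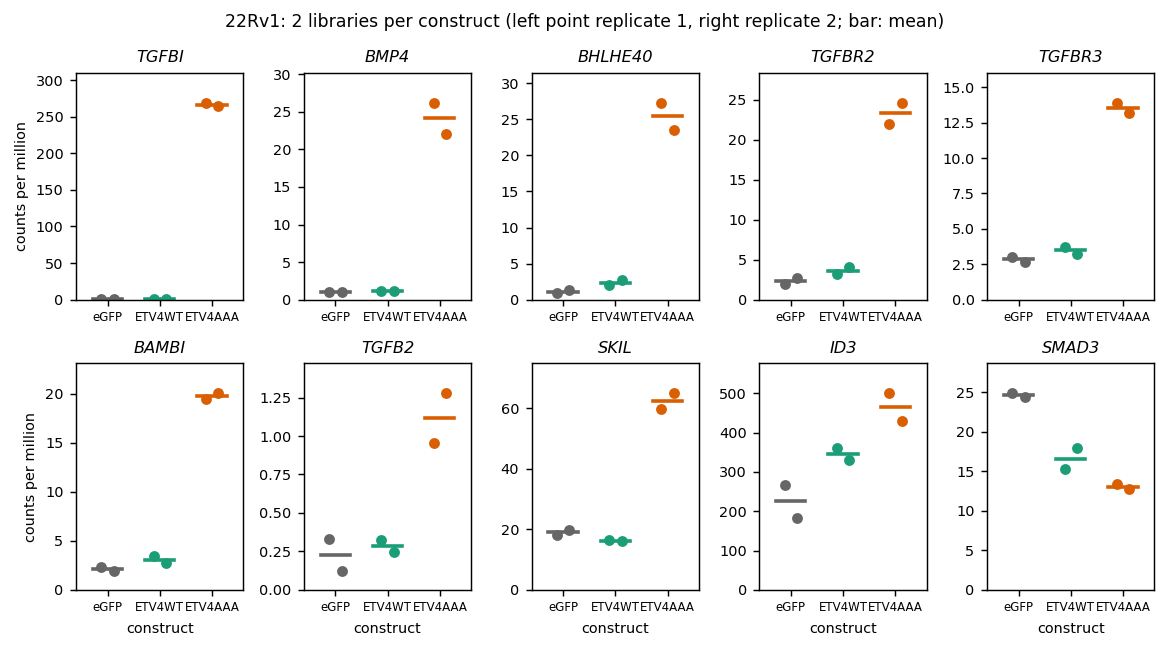
CPM of 10 members in the 22Rv1 libraries, with 1 panel per gene, a linear axis from 0, points for the 2 libraries of each construct and bars for their means. TGFBI, BMP4, BHLHE40, TGFBR2, TGFBR3, BAMBI, TGFB2 and SKIL stand apart in ETV4AAA, ID3 steps up over both constructs without a call for ETV4WT, and SMAD3 is lower with both, at 12.7 to 17.9 against 24.4 and 24.9 CPM.

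Other readings moved with ETV4AAA in 22Rv1. The 8 luminal markers summed to 2561 to 2564 CPM with eGFP and 1718 to 1811 CPM with ETV4AAA. The 3 PC3 markers (CAV1, VIM and AXL) summed to 8.58 to 11.1 and 21.9 to 23.7 CPM. The 7 fibroblast and stromal markers summed to 8.30 to 9.39 and 10.8 to 13.0 CPM, and the 3 endothelial markers to 0.0206 to 0.0410 and 0.710 to 0.831 CPM, of which PECAM1 made up 0.666 and 0.712 CPM. In bulk RNA, fewer cells of a type and less RNA per cell cannot be told apart, and the part of these markers in the pathway changes was not tested. NOG in 22Rv1 ETV4AAA was 0.0469% of its level in PC3 ETV4AAA, AXL 0.223% and COL1A2 0.189%. Other genes high in PC3 rose: CAV1, VIM and PECAM1 had means of 10.8, 12.1 and 0.689 CPM in 22Rv1 ETV4AAA. Their means were 3.08, 6.73 and 0 CPM in 22Rv1 eGFP and 406, 593 and 21.3 CPM in PC3 ETV4AAA. The source of these levels was not tested. The rises over 22Rv1 eGFP came to 4.81% of the PC3 ETV4AAA level for LTBP1, 14.7% for BHLHE40 and 17.6% for TGFBR2, and TGFBI was at 0.065 CPM in PC3 ETV4AAA.

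With wild-type ETV4 in 22Rv1, BHLHE40 rose, SMAD3 fell and the other 35 tested members were not called. ETV4 itself was at 385 and 484 CPM there, against 389.9 and 281 CPM with ETV4AAA. Of 37 tested members 2 were called against eGFP (5.41%), where 1.50% of all genes tested were called. The median log2 change was 0.0 over the members and 0.01 over all genes. At an unadjusted p under 0.05 the same edgeR test gave 8 members, and DESeq2's Wald test called 2. BHLHE40 rose by 1.07 ± 0.20 on the log2 scale (adjusted p = 0.0192) and SMAD3 fell by 0.57 ± 0.13 (adjusted p = 0.0486). Without 22Rv1 eGFP replicate 1 or replicate 2, edgeR called 0 members, with 9 and 6 at an unadjusted p under 0.05. Without ETV4WT replicate 2 BHLHE40 was at 0.85 with an adjusted p of 0.115, and the SMAD3 call was lost without any 1 of the 4 libraries. ID2 came close, at 0.51 ± 0.12 with an adjusted p of 0.0758. TGFBR2 and TGFBI differed from eGFP by 0.65 and 0.77 without a call.

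Set against each other in 22Rv1, ETV4AAA and ETV4WT differed at 18 of 37 tested members (48.6%), 16 higher and 2 lower with ETV4AAA, where 23.5% of all genes tested were called. TGFBI was 315-fold higher, BMP4 20.8-fold, BHLHE40 10.8-fold, BAMBI 6.46-fold and TGFBR2 6.40-fold. LTBP1, SKIL, TGFBR3 and TGFB2 were 3.83-fold to 3.91-fold higher, and SMAD6, ACVR1, BMPR2, BMP6 and ID2 1.56-fold to 2.88-fold. TGFB1 and FST were higher by 0.87 and 0.71 on the log2 scale with adjusted p of 0.0467 and 0.0494, and TGFB1 lost its call without any 1 of the 4 libraries, FST without ETV4AAA replicate 1 (0.44, adjusted p = 0.344) or ETV4WT replicate 2 (0.48, adjusted p = 0.255). FST was also not called with upper-quartile scaling, DESeq2's Wald test, no low-count filter or 22Rv1 fitted alone. PMEPA1 and TGFB3 differed by -0.78 and -0.48. TGFB3 lost its call without any 1 of the 4 libraries (adjusted p up to 0.14), with no low-count filter (0.187) and with 22Rv1 fitted alone (0.0505). BMP6 lost it without ETV4AAA replicate 1 (0.49, adjusted p = 0.239) or either ETV4WT library, and PMEPA1 without ETV4WT replicate 2 (-0.71, adjusted p = 0.076) or ETV4AAA replicate 2 (adjusted p = 0.0959). The median log2 difference was 0.64 over the members and -0.03 over all genes. SMAD3 was not called here, with 15.3 and 17.9 CPM against 13.4 and 12.7 CPM. Both contrasts use the same ETV4AAA libraries.

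In PC3 the libraries labelled ETV4WT were higher than eGFP for BMP6, BMP7, TGFBR2, TGFBR3, ACVR2B and NOG, and lower for FST and BAMBI. Of 37 tested members 15 were called against eGFP (40.5%), 11 up and 4 down, where 23.4% of all genes tested were called. The median log2 change was 0.19 over the members and 0.0 over all genes. Leaving out 1 library gave 12 to 21 calls, and 12 members were called under every alternative. The other 3 lost their calls without PC3 eGFP replicate 2: TGFBR2 (0.54, adjusted p = 0.147), BAMBI (-0.78, adjusted p = 0.0591) and SMAD6 (-0.68, adjusted p = 0.0928). TGFBR2 and SMAD6 also lost theirs without PC3 eGFP replicate 1 or ETV4WT replicate 2.

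BMP7 was at 0.684 and 0.967 CPM in PC3 eGFP, 5.82 and 5.47 CPM in ETV4WT and 1.21 and 0.885 CPM in ETV4AAA. The ETV4WT libraries stood apart, a 6.83-fold rise over eGFP (log2 2.77 ± 0.25, adjusted p = 1.5e-05). BMP6 was at 4.13 and 3.95, 12 and 12.4, and 8.55 and 9.71 CPM. It rose 3.01-fold in ETV4WT and 2.26-fold in ETV4AAA. INHBB had 1 count over the eGFP libraries, 24 over the ETV4WT libraries and 2 over the ETV4AAA libraries. The ratio of ETV4WT to eGFP was 22.3 with a 95% counting interval of 3.64 to 917. PMEPA1 had 3, 76 and 10 counts, and its ratio was 23.5 with an interval of 7.75 to 117, while in CPM it reached 0.762 at most, against 245 or more in 22Rv1. TGFB3 was at 22.6 and 23.8, 12.8 and 11.5, and 21.6 and 18.3 CPM and fell by 0.94 in ETV4WT. BMP7 lies at chr20:57168748-57266629 and PMEPA1 at chr20:57648392-57711536.

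TGFBR3 was at 10.9 and 11.5 CPM in PC3 eGFP, 24.8 and 27.6 CPM in ETV4WT and 32.7 and 33.3 CPM in ETV4AAA. Both constructs were above eGFP without overlap, 2.34-fold (log2 1.22 ± 0.15, adjusted p = 0.000103) and 2.94-fold (log2 1.56 ± 0.15, adjusted p = 0.000151). TGFBR2 was at 70.5 and 69.7, 97.0 and 108, and 116 and 122 CPM, rises of 0.55 and 0.76 on the log2 scale. ACVR2B, a type II receptor for activins, was at 23.4 and 22.0, 40.8 and 48.6, and 27.1 and 30.1 CPM and rose 1.97-fold in ETV4WT. LTBP1 was at 323 and 313, 517 and 531, and 499 and 495 CPM, rises of 0.72 and 0.64. NOG was at 35.5 and 38.7, 70.0 and 74.9, and 72.0 and 73.1 CPM. Its rises were 1.95-fold and 1.96-fold. BHLHE40 was at 99.8 and 108, 195 and 173, and 175 and 156 CPM and rose by 0.83 and 0.67. ID2 was at 20.8 and 22.7, 36.7 and 38.7, and 27.5 and 26.3 CPM and rose by 0.79 in ETV4WT.

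BAMBI was at 3.52 and 3.61 CPM in PC3 eGFP, 2.03 and 2.07 CPM in ETV4WT and 1.17 and 1.12 CPM in ETV4AAA. The 3 groups did not overlap, with falls of 0.80 and 1.63 on the log2 scale (adjusted p = 0.00736 and 0.000599). FST was at 31.0 and 30.9, 13.9 and 16.8, and 10.6 and 10.5 CPM, and fell by 1.01 and 1.56. SMAD6 was at 27.8 and 28.9, 18.9 and 15.8, and 20.9 and 19.8 CPM, and fell by 0.71 in ETV4WT. TGFBI had 3, 9 and 6 counts over the eGFP, ETV4WT and ETV4AAA libraries, and its largest PC3 level was 0.161 CPM. ID1 and ID3 were not called against PC3 eGFP and ranged from 10.6 to 14.8 and from 3.49 to 9.48 CPM over the PC3 libraries. TGFB1, TGFB2 and BMP4 ranged from 30.9 to 73.2, 17.7 to 31.3 and 1.89 to 2.45 CPM there without a call. ACVR1, BMPR2 and SMAD3 were likewise uncalled, at 50.5 to 68.7, 62.3 to 89.4 and 53.2 to 72.9 CPM.

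In the libraries labelled PC3 ETV4AAA, 8 of 37 tested members were called against eGFP (21.6%), 6 up and 2 down, where 3.69% of all genes tested were called. BMP6, LTBP1, TGFBR2, TGFBR3, NOG and BHLHE40 rose and BAMBI and FST fell. The median log2 change was 0.24 over the members and 0.0 over all genes. Leaving out PC3 eGFP replicate 1 or replicate 2 left 3 calls, in each case TGFBR3, BAMBI and FST. TGFBR2 also lost its call without ETV4AAA replicate 2 (0.7, adjusted p = 0.104), and BHLHE40 without either ETV4AAA library (adjusted p = 0.0569 and 0.095). The ETV4WT and ETV4AAA contrasts share the eGFP libraries, so their likeness is not evidence of its own.

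Between the constructs in PC3, 9 of 37 tested members were called (24.3%), 1 higher and 8 lower in ETV4AAA than in ETV4WT, where 11.0% of all genes tested were called. BMP7 was 5.34-fold lower in ETV4AAA (log2 -2.42 ± 0.25, adjusted p = 6.6e-05) and PMEPA1 6.53-fold lower. These 2 calls were kept under every alternative, and each of the other 7 was lost without at least 1 library, those of BAMBI and ID2 without any 1 of the 4. The median log2 difference was -0.04 over the members and 0.0 over all genes. INHBB, with 2 counts against 24, ACVR2B, BAMBI, SMAD7, SKIL and ID2 were also lower, and TGFB3 was higher by 0.72. SMAD7 was at 4.52 and 3.36 CPM in ETV4WT and 2.65 and 2.13 CPM in ETV4AAA. SKIL was at 37.1 and 51.5 against 26.8 and 32.9 CPM, with an adjusted p of 0.0497. Without PC3 ETV4AAA replicate 1 there were 2 calls, without ETV4AAA replicate 2 there were 5, without ETV4WT replicate 1 there were 6 and without ETV4WT replicate 2 there were 4.

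**Figure D3:**
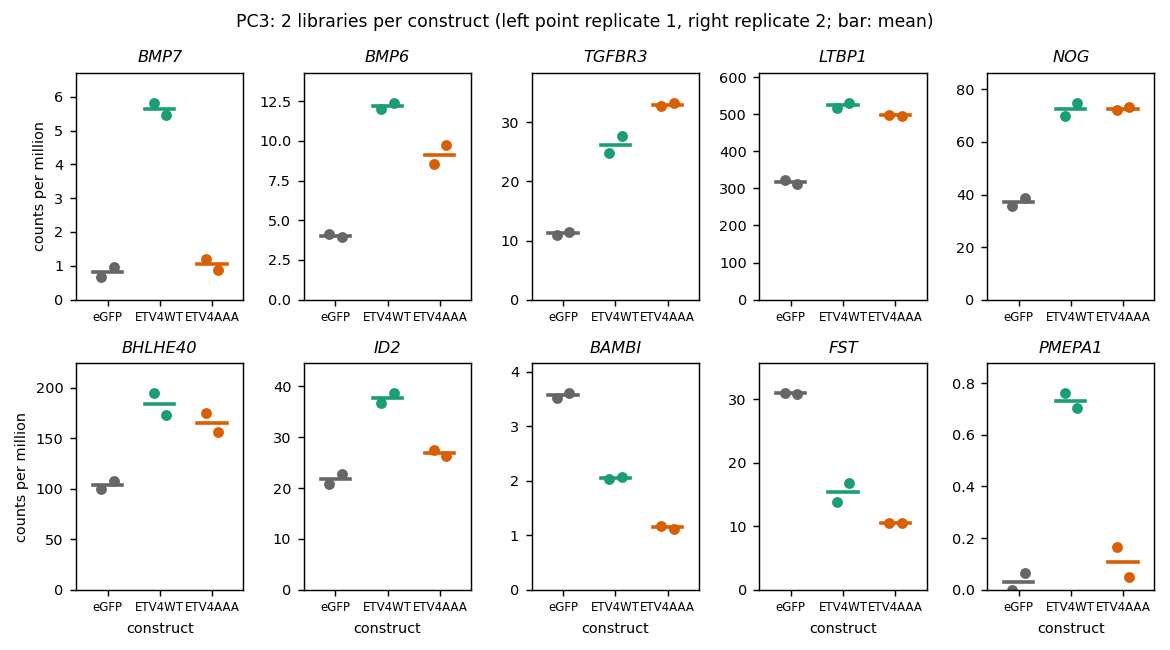
CPM of 10 members in the PC3 libraries, with 1 panel per gene, a linear axis from 0, points for the 2 libraries of each construct and bars for their means. BMP6, TGFBR3, LTBP1, NOG and BHLHE40 are higher with both constructs, BMP7, ID2 and PMEPA1 peak in ETV4WT, and BAMBI and FST are lower with both.

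Several members differed between libraries of 1 group. LTBP4 in replicate 2 was 0.421 times replicate 1 in PC3 ETV4WT, 0.379 times in PC3 ETV4AAA and 0.536 times in 22Rv1 eGFP. LTBP3 showed ratios of 0.492, 0.441 and 0.647 in those groups, TGFB1 0.564, 0.578 and 0.725, and ID3 0.555, 0.509 and 0.689. In PC3 eGFP the same 4 genes had ratios from 1.1 to 1.2. The PC3 construct libraries numbered 2 were also those with the lower ETV4. TGFB1, LTBP3, LTBP4 and ID3 were called in no PC3 comparison, and the source of the split was not tested. With both PC3 construct libraries numbered 2 left out, 15 members were called in ETV4WT and 10 in ETV4AAA against eGFP.

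In PC3 ETV4WT, markers moved too. The 8 luminal markers summed to 612 to 653 CPM with eGFP, 408 to 527 CPM with ETV4WT and 629.7 to 839 CPM with ETV4AAA. The 4 epithelial markers summed to 539.8 to 566, 291 to 371 and 349 to 488 CPM. The fibroblast and stromal markers summed to 385 to 394, 324 to 404 and 308 to 391 CPM. The part of these in the PC3 changes was not tested.

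The effect of ETV4AAA differed between the lines for 19 of 37 tested members (51.4%), 17 with a larger or more positive change in 22Rv1 and 2 with a more negative one, where 16.2% of all genes tested were called. The clearest difference was BAMBI, which fell in PC3 and rose in 22Rv1. The log2 change in 22Rv1 minus that in PC3 was 4.84 ± 0.26 (adjusted p = 2.17e-07). FST likewise fell in PC3 and rose in 22Rv1, a difference of 2.5 ± 0.30. BMP4 differed by 4.40 ± 0.25, BHLHE40 by 3.83 ± 0.24 although it rose in both lines, TGFBR2 by 2.57 ± 0.23 and SKIL by 2.30 ± 0.24. SMAD3 differed by -1.19 ± 0.18, with 58.6 and 58.4 CPM in PC3 eGFP and 72.9 and 67.9 CPM in PC3 ETV4AAA. TGFBI differed by 8.04 ± 1.62, a value that rests on few PC3 counts and was not called without PC3 eGFP replicate 2 (7.48, adjusted p = 0.124). Without that library 12 members were called, and ACVR1, ID3, TGFB2, LTBP2, LTBP3, TGFBR3 and BMPR2 also lost their calls. Of the 8 libraries in this difference, leaving out any 1 ended the TGFBR3 call, 7 ended that of BMPR2, 6 each those of LTBP2 (adjusted p up to 0.171) and LTBP3 (up to 0.149), 4 that of TGFB2 (up to 0.117) and 3 that of ID3 (up to 0.0822). TGFBR3 and BMPR2 were also not called with DESeq2's size factors or Wald test, upper-quartile scaling or no low-count filter. TGFB1 lost its call without 22Rv1 eGFP replicate 2 (1.52, adjusted p = 0.0833) or 22Rv1 ETV4AAA replicate 1 (1.61, adjusted p = 0.0684). The other 10 calls, among them BAMBI, BMP4, BHLHE40, TGFBR2 and SKIL, were kept under every alternative run. The median was 0.64 over the members and 0.04 over all genes. LTBP1, LTBP2, LTBP3, TGFB1, TGFB2, TGFBR3, ACVR1, BMPR2, SMAD6, ID2 and ID3 made up the rest of the 19 calls.

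The effect of ETV4WT differed between the lines for 9 of 37 tested members (24.3%), 2 more positive and 7 more negative in 22Rv1, where 12.5% of all genes tested were called. With upper-quartile scaling the split was 1 and 10. BMP7, INHBB and PMEPA1, which rose in PC3, differed by -4.43, -4.60 and -4.28 on the log2 scale. In 22Rv1 BMP7 was at 0.0204 to 0.166 CPM in all 6 libraries. BMP6, LTBP1, TGFBR3 and ACVR2B differed by -1.67, -1.24, -0.93 and -1.26. BAMBI differed by 1.32 and FST by 1.24, each with a fall in PC3. Without PC3 ETV4WT replicate 1 there were 15 calls. BMP7 rests on few 22Rv1 counts and lost its call without 22Rv1 eGFP replicate 1 (-3.68, adjusted p = 0.149). The call of BMP7 was also lost without 22Rv1 ETV4WT replicate 1 (-4.49, adjusted p = 0.0501). Leaving out either PC3 eGFP library ended the TGFBR3 call (adjusted p = 0.0803 and 0.0632). FST lost its call without any 1 of 5 of the 8 libraries, namely all 4 eGFP libraries and 22Rv1 ETV4WT replicate 1 (0.99, adjusted p = 0.106), and with upper-quartile scaling (1.06, adjusted p = 0.0509). The median was -0.2 over the members and 0.02 over all genes.

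**Figure D4:**
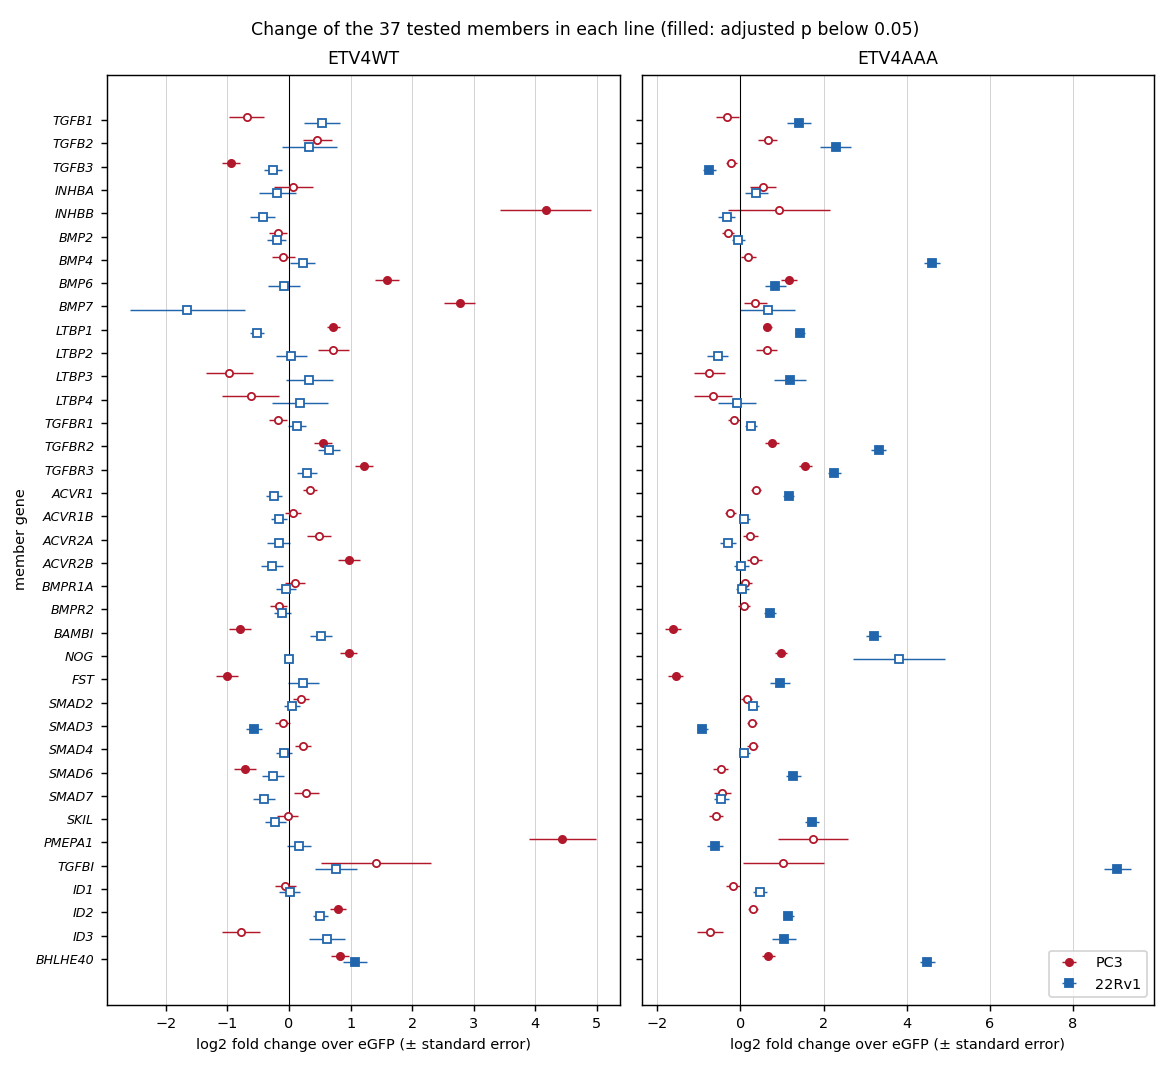
Log2 fold change over eGFP with its standard error for the 37 tested members, ETV4WT on the left and ETV4AAA on the right, with circles for PC3, squares for 22Rv1 and filled symbols for an adjusted p under 0.05. The filled blue squares of ETV4AAA lie to the right of 0 for 18 members and to the left for 3, and the filled symbols of BAMBI and FST lie on opposite sides of 0 in the lines.

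Counted over the 4 contrasts with eGFP, 25 of 37 tested members were called at least once. The share of all genes called at least once over these 4 was not computed. Taken singly, the contrasts called 1.50% to 31.8% of all genes tested. BHLHE40 rose in all 4, BMP6, LTBP1, TGFBR2 and TGFBR3 rose in 3, and ID2 and NOG in 2. BAMBI, FST, PMEPA1 and SMAD6 were called in opposite directions in different contrasts. As given above, some calls of BHLHE40, BMP6, LTBP1, TGFBR2, NOG, BAMBI, FST, PMEPA1 and SMAD6 were lost when a library was left out. The contrasts of a line also share its eGFP libraries, so these tallies do not count independent results. The other 12 were called in none: ACVR1B, ACVR2A, BMP2, BMPR1A, ID1, INHBA, LTBP2, LTBP4, SMAD2, SMAD4, SMAD7 and TGFBR1. Their levels still differed by line in part. TGFBR1 ranged from 30.8 to 39.0 CPM in PC3 and 8.16 to 10.3 CPM in 22Rv1, ACVR1B from 23.4 to 32.3 and 54.6 to 71.1, ACVR2A from 9.92 to 16.3 and 4.88 to 6.75, and BMP2 from 9.57 to 12.8 and 14.6 to 18.1 CPM. BMPR1A ranged from 34.3 to 46.5 CPM in PC3 and 27.7 to 32.5 CPM in 22Rv1, LTBP2 from 7.23 to 14 and 4.20 to 8.55, LTBP4 from 15.4 to 48.1 and 31.4 to 58.6, and SMAD7 from 2.13 to 4.52 and 13.1 to 21.3 CPM.

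A further 128 genes of the pathway were listed by role, also with earlier results of these data known, and 110 passed the filter. In 22Rv1 ETV4AAA 45 of the 110 were called against eGFP (40.9%), 39 up and 6 down, beside the 31.8% of all genes, with a median log2 change of 0.18. Of 26 TGF-beta targets 12 rose and 4 fell. FN1, which encodes fibronectin, was at 26.5 and 25.3 with eGFP, 88.6 and 111 with ETV4WT and at 329 and 287 CPM with ETV4AAA. It rose with both (log2 1.94 and 3.57). The cell-cycle inhibitor CDKN2B rose by 2.20 on the log2 scale with ETV4AAA. Of 9 tested genes of latency and activation 6 rose. Among them FBN1, a fibrillin to which LTBPs bind, was at 1.17 and 1.11 with eGFP, 1.42 and 1.47 with ETV4WT and 48.9 and 40.6 CPM with ETV4AAA, a 39.2-fold rise. Of 14 ligands 6 rose, with GDF11 going from 51 and 53.2 to 453 and 426 CPM and GDF15 from 18.4 and 11.5 to 324 and 222 CPM. The endothelial receptor ACVRL1 rose from 0.308 and 0.350 to 1.82 and 1.78 CPM.

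Of 26 SMAD partners, corepressors and ubiquitin ligases 5 were called in 22Rv1 ETV4AAA (19.2%, under the 31.8% of all genes), all upward, with a median log2 change of -0.02. Among the 5 were WWTR1 (log2 2.05), TGIF1 (1.87) and ZFYVE16 (0.99). The antagonists FSTL1, TWSG1 and CRIM1 rose by 2.47, 0.86 and 0.44. Of 11 BMP targets 5 rose and 1 fell, including SP7 from 0.0205 and 0 CPM to 1.58 and 1.33 CPM. The BMP-specific SMAD1, SMAD5 and SMAD9 were not called, at 12.8 and 13.9, 69.3 and 79.7, and 44.4 and 45.8 CPM with eGFP and 15.0 and 14.2, 67.3 and 71.3, and 46.3 and 42.4 CPM with ETV4AAA. With ETV4WT in 22Rv1 4 genes were called (3.64%, beside 1.50% of all genes), all upward: FN1, CDKN1A, ACTA2 and BMPR1B, at log2 1.94, 1.92, 1.52 and 0.92.

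In PC3 ETV4WT 41 of these 110 genes were called (37.3%), 29 up and 12 down, beside 23.4% of all genes, with a median of 0.14. Of 11 BMP targets 6 rose. ID4, another ID gene, was at 1.41 and 1.70 with eGFP, 7.82 and 8.32 with ETV4WT and at 1.21 and 1.39 CPM with ETV4AAA. MSX2 and HEY1 rose by 2.45 and 0.92 in ETV4WT. The activin-family gene INHBE was at 3.62 and 3.76, 58.2 and 52.5, and 6.55 and 3.78 CPM, a log2 rise of 3.91 in ETV4WT. The BMP co-receptor NEO1 was at 3.36 and 3.12, 14.2 and 16.1, and 4.40 and 4.28 CPM. In PC3 ETV4AAA 14 were called (12.7%, beside 3.69% of all genes), 6 up and 8 down, with a median of -0.02. TGM2, a transglutaminase, was at 0.866 and 0.774 with eGFP, 13.0 and 8 with ETV4WT and 12 and 7.29 CPM with ETV4AAA, rises of 3.67 and 3.56. FSTL1 rose by 1.27 with each construct and FBN1 by 1.49 and 1.5. ITGB8, part of an integrin that activates latent TGF-beta, was at 25.9 and 24.9, 5.52 and 5.97, and 6.72 and 8.06 CPM and fell with both. GDF15 was at 7.51 and 7.44, 25.7 and 16.8, and 1.56 and 0.646 CPM, and fell by 2.73 in ETV4AAA.

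Whether the counting used strand is unknown from the labels, and 18 of the 38 members overlap an annotated gene on the other strand, among them TGFB1, BMP7, TGFBR2, ID2, BHLHE40 and PMEPA1. The overlaps are of whole gene spans, introns included. If strand was not used, reads from stretches shared by such a pair cannot be told apart. On the same strand 10 members overlap an annotated gene, among them TGFB2, LTBP1, TGFBR3 and BMPR2, and there the strand setting would not help. TGFBI, BMP4, BAMBI, NOG, FST and SKIL are among the 15 members that overlap no annotated gene.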

How the data were processed

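RNA was measured in 12 libraries of 2 cell lines, in 6 groups of 2. The labels describe poly-A enriched libraries sequenced on a NextSeq 500. Per the submitters' processing notes, FastQC 0.11.9 and STAR 2.5.3a were used with GRCh38. The sources used here name no counting program, strand setting or annotation. The deposited values are raw counts, whole numbers for each Ensembl gene that sum to unequal totals. GENCODE 29 holds 99.549% of the table's IDs.

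The low-count filter was filterByExpr with the group given, which left 23238 genes. Counts were scaled with TMM, and fitted with edgeR 4.0.16 (quasi-likelihood, 1 mean per group, all 12 libraries, 6 residual degrees of freedom, biological coefficient of variation 0.149) in R 4.3.3. Adjusted p-values are Benjamini-Hochberg over all genes tested, with a threshold of 0.05, in 9 comparisons. The standard error is the log2 change divided by the square root of F. Groups with 1 to 3 counts get a ratio of summed counts with an exact 95% interval, and groups at 0 a bound from a floor of 3 counts over the group. These cover counting error only, since reads without molecular identifiers are not independent molecules. The script was tested on simulated data.

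Tried besides were a replicate block, each line alone, a fit with no filter, size factors and the Wald test from DESeq2 1.42.0, upper-quartile scaling, and leaving out each library or both PC3 construct libraries numbered 2. Every member is named. Of the other pathway genes, those eligible are the 3 called genes per role and comparison with the lowest adjusted p and at least 1 CPM in a group. The members and lists were chosen with earlier results of these data known. Promoters come from RefSeq. A few genes are not reported here by name.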

Additional observations from a re-analysis of the deposited data

Results flagged for a closer look

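Each value here is the log2 change against eGFP in 22Rv1 minus that in PC3, with edgeR's adjusted p over all genes tested, and was set apart because this difference between the lines passed the test. For ETV4WT the values were -4.60 for INHBB (adjusted p = 0.00226), -4.43 for BMP7 (0.0116), -4.28 for PMEPA1 (0.000775), -1.67 for BMP6 (0.00635), -1.26 for ACVR2B (0.00711), -1.24 for LTBP1 (0.000537), -0.93 for TGFBR3 (0.0144), 1.24 for FST (0.0221) and 1.32 for BAMBI (0.00559).

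For ETV4AAA the ligand values were 1.73 for TGFB1, 1.64 for TGFB2 and 4.40 for BMP4. The latency proteins gave 0.80 for LTBP1, -1.18 for LTBP2 and 1.94 for LTBP3. The receptors gave 2.57 for TGFBR2, 0.70 for TGFBR3, 0.78 for ACVR1, 0.64 for BMPR2 and 4.84 for BAMBI. FST stood at 2.5, SMAD3 at -1.19, SMAD6 at 1.75 and SKIL at 2.30. The targets gave 8.04 for TGFBI, 0.85 for ID2, 1.79 for ID3 and 3.83 for BHLHE40. The adjusted p ranged from 2.17e-07 (BAMBI) to 0.0474 (BMPR2). LTBP2, called against eGFP in neither line, was at 5.79 and 4.20 CPM in 22Rv1 ETV4AAA and 14 and 8.56 CPM in PC3 ETV4AAA. The differences of TGFBR3 and BMPR2 lost their calls under 12 and 11 of 14 alternatives.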

How the results depend on the processing

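No member's change reversed in direction past the threshold under any alternative run. Leaving out 1 library at a time gave 3 to 9 members called for ETV4AAA in PC3, 2 to 6 for ETV4AAA against ETV4WT in PC3, 0 to 2 for ETV4WT in 22Rv1 (edgeR, where 5 to 9 had an unadjusted p under 0.05), 7 to 15 for the line difference of ETV4WT and 12 to 18 for that of ETV4AAA. Without a low-count filter 13 members were called for ETV4AAA in PC3, where 5.08% of all genes were called. Fitting PC3 alone gave 5 for ETV4AAA against ETV4WT and leaving out both PC3 construct libraries numbered 2 gave 4. Fitting 22Rv1 alone gave 1 for ETV4WT, where 2.33% of all genes were called. The labels do not say that replicate numbers pair libraries, and deviations of same-numbered libraries correlated at 0.494 between the PC3 constructs, -0.103 and -0.0979 between these and PC3 eGFP, -0.149, 0.212 and -0.141 within 22Rv1, and -0.0976 to 0.362 in the 9 pairs of groups across lines, 4 of them over 0.1. Since not every pair was over 0.1, the numbers were not taken as pairs. With a replicate block 1 member was called for ETV4WT in 22Rv1 and 20 in PC3, where 1.51% and 27.1% of all genes were called. For ETV4AAA the block gave 8 in PC3 and 23 in 22Rv1, where 3.74% and 31.9% of all genes were called. It ended the calls of SMAD3 for ETV4WT (adjusted p = 0.0732) and of FST for ETV4AAA against ETV4WT in 22Rv1 (adjusted p = 0.0519, both edgeR), and no other call. The cause of these shifts was not tested, except that leaving out libraries lowers the number of samples. Upper-quartile scaling moved the median log2 value of all genes to 0.32 between the lines, 0.12 for ETV4WT in PC3 and -0.16 for its line difference, where the split of higher and lower calls went from 2 and 7 to 1 and 10. Members at 10 counts or fewer in a group (INHBB, PMEPA1 and TGFBI in PC3, BMP7 and NOG in 22Rv1) are limited by depth.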
